A study of Homo sapiens with 24 samples.

Results

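Cytosolic ribosomal proteins are the protein components of the ribosomes that translate nuclear-encoded messengers, and the transcripts of 83 of them were followed here across 24 RNA-seq libraries. Members were taken by name, as protein-coding genes called RPL, RPS, RPLP or RPSA with their number, without the RPS6 kinases and without genes of the Y chromosome. The rule found 83 of the 34305 genes in the joined tables, and all 83 were listed in each of the 4 tables. They comprise 43 large-subunit proteins, 31 small-subunit proteins, the 3 stalk proteins RPLP0, RPLP1 and RPLP2, and 6 paralogs, RPL3L, RPL7L1, RPL22L1, RPL26L1, RPL39L and RPS27L. RPL10L is not analysed here. A total of 82 members had enough counts for testing, and RPL3L, whose canonical partner RPL3 is used in most tissues while RPL3L is known from heart and skeletal muscle, had at most 0.523 CPM in any library, where CPM are counts scaled to a common library total.

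The cells were HEK293, a human embryonic kidney line labelled WT, and HEK293 stably transfected with Klotho, labelled Kl. Klotho is the membrane co-receptor through which FGF receptors bind the bone hormone FGF23. Recombinant human FGF23 was given for 1 h at 0.5 nM, or for 24 h at 10 nM, so dose and duration changed together. Each line had untreated controls at each time, giving 8 groups of 3 libraries: WT control, WT with FGF23, Kl control and Kl with FGF23, each at 1 h and at 24 h. All groups were grown in the same serum-containing medium. The Kl line's promoter, and whether it is 1 clone or a pool, are not given in the sources used here. Replicates are not stated to be separate cultures, so p-values measure the spread between these libraries, which may be technical.

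KL counts were 0 to 14 in WT libraries and 16072 to 54039 in Kl libraries. Of the defining markers, KRT8 was at 349 to 711 CPM and EPCAM at 63.2 to 163 CPM, PAX2 was at 7.02 to 14.6 CPM and PAX8 at 0 to 0.4 CPM. Of the nephron genes LRP2 was at 13.0 to 27.5 CPM, AQP1 had 11 to 48 counts and CUBN 6 to 28, and AQP2 and SLC12A3 had at most 2 counts. Among markers of fibroblasts, blood cells and endothelium, COL1A1 had 190 to 753 counts, whereas COL1A2, DCN, PTPRC, CD68 and PECAM1 had at most 3 counts in any library. Library totals ran from 15849564 to 30446989 counts. In Kl cells given FGF23 for 1 h libraries 1, 2 and 3 had 16620917, 29399704 and 26276202, against 15849564 to 17915715 in their controls. At 24 h they had 18522517, 29116838 and 24284326, against 16207000 to 17895444. Library 1 was thus nearest to the controls in depth at both times. The part of depth in differences between libraries was not tested. The 3 libraries of Kl cells given FGF23 for 1 h stood apart in their spread. The median standard deviation of log2 CPM over the members was 0.186 there and 0.0373 to 0.0996 in the other 7 groups, and library 1 was the library farthest from the middle one for 49 of 82 members. At 24 h library 1 of the Kl cells given FGF23 was the farthest for 60 of 82 members, library 2 of the WT cells given FGF23 for 54 and library 1 of the WT controls for 47. Every other library was so for at most 42.

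Ribosomal proteins are made in matched amounts in the cytoplasm, imported into the nucleus and assembled on ribosomal RNA in the nucleolus. Their messengers typically begin with a terminal oligopyrimidine (TOP) tract, a C at the first base followed by a run of C and T, through which LARP1 and the kinase complex mTORC1 control their translation. Several of their introns carry small nucleolar RNAs (snoRNAs), which guide modification of ribosomal RNA: box C/D snoRNAs guide ribose methylation and box H/ACA snoRNAs guide pseudouridylation. RNA-seq of total RNA measures transcript levels and does not show translation. A growth factor can act on these genes at both levels.

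Start sites show how alike the members are at the base that LARP1 reads and where the paralogs depart from it. A RefSeq promoter window was found for 66 members. Of these, 47, or 71.2%, had a C at the first base followed by at least 4 C or T, against 5.14% of 27305 genes searched the same way on the transcribed strand. Among the paralogs 1 of 4 with a window had it. The windows below are from RefSeq GRCh38.p14, 20 bases before and 20 from the first base on, 5′ to 3′ on the gene's strand, with the TOP tract in capitals. The first 4 are members lower in Kl cells after 24 h of FGF23, the next 2 differ between the lines, and the last 6 pair RPL22, RPS27 and RPL26 with their paralogs.
RPL27A, chr11:8682772-8682811, plus strand: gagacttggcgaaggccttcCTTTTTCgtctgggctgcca
RPLP2, chr11:809947-809986, plus strand: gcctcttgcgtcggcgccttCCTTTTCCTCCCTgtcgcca
RPL21, chr13:27251538-27251577, plus strand: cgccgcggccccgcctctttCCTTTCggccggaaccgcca
RPS18, chr6:33272055-33272094, plus strand: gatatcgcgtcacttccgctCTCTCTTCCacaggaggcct
RPS6, chr9:19380217-19380256, minus strand: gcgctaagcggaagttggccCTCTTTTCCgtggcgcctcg
RPS12, chr6:132814549-132814588, plus strand: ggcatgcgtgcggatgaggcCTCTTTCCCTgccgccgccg
RPL22, chr1:6199576-6199615, minus strand: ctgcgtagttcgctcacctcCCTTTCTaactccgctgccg
RPL22L1, chr3:170870176-170870215, minus strand: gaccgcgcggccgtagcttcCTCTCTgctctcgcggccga
RPS27, chr1:153990742-153990781, plus strand: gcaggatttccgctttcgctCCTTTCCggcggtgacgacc
RPS27L, chr15:63157458-63157497, minus strand: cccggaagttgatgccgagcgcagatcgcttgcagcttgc
RPL26, chr17:8383174-8383213, minus strand: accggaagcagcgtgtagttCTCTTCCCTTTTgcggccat
RPL26L1, chr5:172958709-172958748, plus strand: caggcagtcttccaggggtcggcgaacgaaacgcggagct
RPL22L1 keeps the tract of RPL22, with 6 bases against 7, whereas RPS27L and RPL26L1, the latter at either of its listed starts, have none where RPS27 has 7 bases and RPL26 has 12.

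The members were among the most abundant transcripts, at a median of 182 in the deposited FPKM, a level per length, against 3.81 over the 17790 genes tested. These FPKM values were scaled within each of the 4 tables, so levels across tables carry that scaling. By role the median FPKM was 180 for the large subunit, 215 for the small subunit, 303 for the stalk and 8.13 for the paralogs. RPL13A led with 844 to 1183 FPKM over the 24 libraries, followed by RPL7A with 757 to 1099 and RPS4X with 746 to 874, ranges that overlap. Each tested paralog except RPL26L1 was listed below its partner. RPL26L1 had a median of 37.4 FPKM against 18.8 for RPL26, with listed lengths of 1164 and 2513 bases. In mean CPM, which is not divided by length, RPL26L1 was below RPL26 in each group except the 24 h Kl controls (45.6 against 43.1). Listed lengths of the members ran from 767 bases for RPS12 to 9845 for RPS29, and the order by FPKM depends on them. RPL22L1, which can replace RPL22, had a median of 3.0 FPKM against 33.8, and RPL39L, a testis-enriched form of the exit-tunnel protein RPL39, had 7.36 against 204.

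Some core proteins of low listed level overlap another coding gene or have pseudogenes of similar sequence. RPS10 had a median of 48 counts and overlaps the readthrough gene RPS10-NUDT3 on its strand, and RPL36A, with 119 counts, overlaps RPL36A-HNRNPH2. RPL17 (417 counts), RPL26 (905) and RPS15A (2219) also overlap a coding gene on their strand. So do members with more counts, among them RPL22 (2929) and RPL36 (7626), whereas RPS29 (1308) overlaps none. The part of overlap in a low level was not tested. The 480 pseudogenes of 70 members took 3.03 to 3.36% of the counts of members and pseudogenes together. For 7 members that share was over 10%, among them RPS28 with 48.4%, RPS10 with 47.1%, RPL39 with 24.6% and RPS2 with 19.7%. How the authors divided such reads is not given, and values of these members are uncertain to that extent.

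In Kl cells given FGF23 at 10 nM for 24 h, ribosomal protein transcripts were lower by small amounts, with RPL30, RPS2, RPL27A, RPLP2, RPS18 and RPL21 among those that passed the test. In edgeR's quasi-likelihood test over all 17790 genes, with Benjamini-Hochberg adjustment and a call at an adjusted p under 0.05, 7 of 82 members were lower and none was higher. That is 8.54% of the members, where 3.66% of all genes tested were called lower. Fold changes were below 0 for 71 of 82 members, with a median of -0.09 on the log2 scale against 0.0 over all genes. All lower calls were modest, from 1.13-fold for RPL21 to 1.38-fold for RPL30. In bulk RNA fewer cells and less RNA per cell cannot be told apart, and values are relative to all other transcripts.

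RPL30 is a large-subunit protein whose yeast counterpart restrains splicing of its own messenger. Its CPM at 24 h was 128, 131 and 148 in the Kl controls and 114, 88.5 and 94.2 with FGF23. The FGF23 libraries were all lower, and library 1 lay nearest to the controls. The log2 fold change was -0.46 ± 0.1 (SE, n = 3 per group), with an adjusted p of 0.00321 in edgeR. Each SE given here is derived from the edgeR test statistic, with a spread estimated over all 24 libraries. It is not the spread of the groups compared alone. In WT cells the same treatment gave 118, 112 and 115 CPM against 110, 102 and 118, and these groups overlapped.

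RPL27A is a large-subunit protein encoded on chromosome 11. It had 599, 612 and 641 CPM in the Kl controls and 536, 478 and 471 CPM with FGF23. No library overlapped, and the log2 fold change was -0.32 ± 0.0573 with an adjusted edgeR p of 0.000344, the smallest among the members. In WT cells it had 547, 518 and 529 CPM in controls and 587, 538 and 594 CPM with FGF23, with overlapping groups. RPL27A and RPL30 remained called in all 17 alternatives tried for them, with adjusted p-values up to 0.00695 and 0.0392.

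RPS2, which lines the messenger entry channel of the small subunit, had 1870, 1839 and 2038 CPM in the Kl controls and 1748, 1354 and 1334 CPM with FGF23. FGF23 library 1 again stood close to the controls. Its log2 fold change was -0.37 ± 0.0778, with an adjusted edgeR p of 0.00175. It was called in 16 of 17 alternatives and lost in the fit to the 6 libraries compared alone, at an adjusted p of 0.146. RPLP2, a stalk protein that helps recruit elongation factors, had 374, 372 and 432 CPM in controls and 377, 289 and 294 CPM with FGF23. The groups overlapped through FGF23 library 1. The log2 fold change was -0.3 ± 0.0941 with an adjusted edgeR p of 0.0483, and 9 of 17 alternatives lost the call.

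RPS18, in the head of the small subunit, had 1078, 1070 and 1124 CPM in controls and 1020, 933 and 927 CPM with FGF23. RPL21, of the large subunit, had 243, 244 and 238 CPM in controls and 210, 218 and 213 CPM with FGF23. For both genes every FGF23 library was below every control, and for RPS18 FGF23 library 1 lay nearest to the controls. The adjusted edgeR p was 0.0294 for RPS18 and 0.0454 for RPL21, and 7 to 9 of 17 alternatives lost each call.

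**Figure D1:**
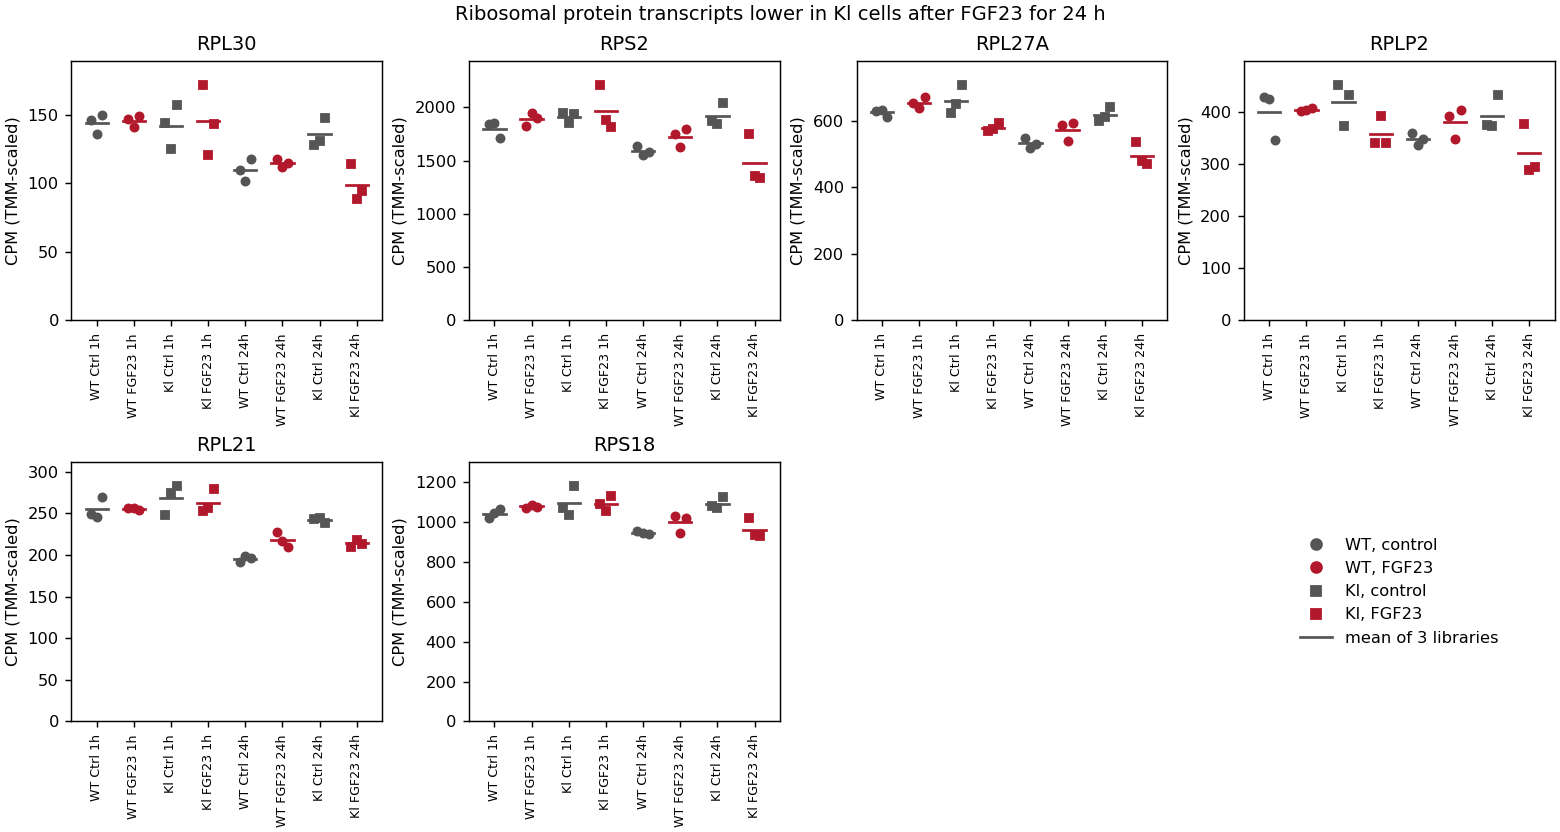
TMM-scaled CPM of 6 of the 7 members called lower after 24 h of FGF23 in Kl cells, in each of the 24 libraries (points, 3 per group) with group means (lines). RPL30 fell from 128 to 148 CPM in the 24 h Kl controls to 88.5 to 114 CPM with FGF23. For RPL30, RPS2, RPL27A, RPLP2 and RPS18 the first FGF23 library is the highest of that group.

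The number called moved with how the spread was estimated and with single libraries. A fit to the 6 Kl 24 h libraries alone called 26 members lower, 31.7% of those tested, against 8.87% of all genes in that fit. Of the 26, 5 were also called over all libraries. RPS23 (log2 fold change -0.25), RPS9 (-0.23), RPL23A (-0.22), RPS15A (-0.22) and RPL13A (-0.21) were among those added, and RPL7L1, a paralog of RPL7, was higher at 0.11. The authors' deposited table marks 30 members lower and 1 higher in this comparison at its adjusted p under 0.05. Of its 28866 genes 2375 are marked in either direction. Without any 1 of the 3 controls, or without FGF23 library 2 or 3, the count over all libraries was 3. Of 18146 to 18193 genes tested 269 to 413 were called lower in those fits. Without FGF23 library 1 the count was 10, where 698 of 18160 genes were called lower. With the trend of each library in gene length removed it was also 3. That is 3.66% of the members, where 627 of 17790 genes were called lower, a share near that of the members.

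Most of the 7 lower members carry snoRNAs in their genes, a feature examined after the values were seen. By GENCODE 29, 28 of 83 members hold a snoRNA on their strand, 14 with a box H/ACA and 14 with only box C/D. Of the 7 lower members 6 were hosts. Among them RPL30 holds SNORA72, RPS2 holds SNORA10 and SNORA64, RPL27A holds SNORA3A and SNORA3B, RPLP2 holds SNORA52, and RPL21 holds SNORA27 and SNORD102. RPS18 holds none. Among H/ACA hosts 5 of 14 were called and the median log2 fold change was -0.11, against a median of -0.13 among the 14 C/D hosts and -0.07 among the 54 tested non-hosts. In the fit to the 6 libraries alone 14 of the 26 lower members were hosts. The 11 noncoding snoRNA host transcripts had a median of -0.1, with SNHG7 lower by 0.38 (adjusted edgeR p 0.00771). The difference between host classes was not tested.

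Of 47 members with a TOP start 4 were called lower with a median log2 fold change of -0.11. Of 19 without one at the listed first base none was called, with a median of -0.07. A tract beginning beside the listed first base was not searched for, so these 19 may include TOP messengers. Of the 16 tested members without a window 3 were called, RPL30 and RPS2 among them, with a median of -0.14. The difference was not tested.

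In WT cells no member passed the test at either time. At 24 h 81 of 82 members were above 0, with a median log2 fold change of 0.07 and a range of -0.22 to 0.22. No gene of any kind was called, 0.0% of those tested, and 2 members had an unadjusted p under 0.05. DESeq2 and limma voom called no member either. FGF23 library 2 lay nearest to the controls, with a members' share of all counts of 5.55% against 5.48 to 5.61% in controls and 5.86 and 5.94% in the other FGF23 libraries. Without it the median was 0.09, and without any other library 0.05 to 0.08. The fit to the 6 WT 24 h libraries alone called 6 members higher, 7.32% of those tested, against 0.102% of all genes in that fit, where they made 6 of the 17 genes called higher. They were RPL39 (0.17), RPL21 (0.15), RPL23A (0.14), RPL34 (0.13), RPS2 (0.12) and RPS3A (0.11). The authors' deposited table marks 8 members higher there and none lower. Of its 29888 genes 211 are marked in either direction.

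RPL21 shows the size of these differences. It had 191, 199 and 196 CPM in the WT 24 h controls and 227, 217 and 209 CPM with FGF23, without overlap. For RPL39, at the wall of the exit tunnel, controls had 381, 357 and 351 CPM and FGF23 libraries 439, 386 and 407 CPM. These groups also did not overlap.

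**Figure D2:**
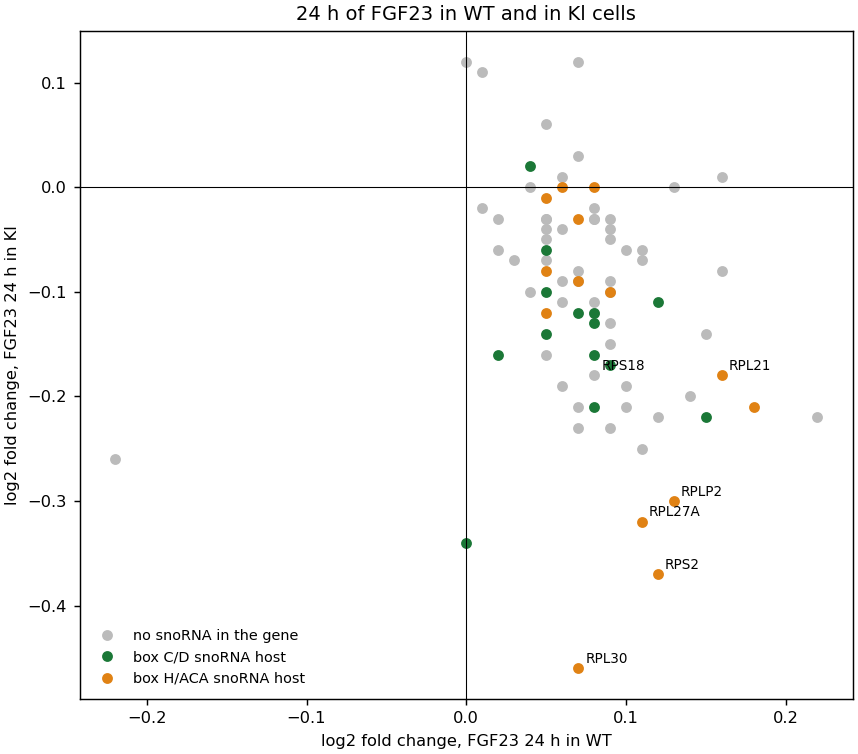
Log2 fold change of each of the 82 tested members after 24 h of FGF23 in WT cells (x axis) and in Kl cells (y axis), coloured by the class of snoRNA in the gene, with 6 of the 7 members called lower in Kl named. Most points lie right of 0 and below 0, with medians of 0.07 in WT and -0.09 in Kl.

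The difference between the lines in the 24 h response was tested as an interaction. It was lower in Kl for 78 of 82 members, with a median of -0.17 on the log2 scale. Called were 7 members, or 8.54%, all lower, against 1.32% of all genes called lower. Among them were RPL30 (-0.53 ± 0.142, adjusted edgeR p 0.0344), RPS2 (-0.49 ± 0.11, 0.00752), RPL27A (-0.43 ± 0.081, 0.00131), RPL23A (-0.36, 0.0409), RPL21 (-0.34, 0.0125) and RPS18 (-0.26, 0.0472). RPL23A, a docking site for chaperones and the signal recognition particle at the exit tunnel, had 603, 602 and 607 CPM in WT controls and 675, 636 and 693 CPM with FGF23. In Kl it had 671, 704 and 681 CPM in controls and 591, 592 and 584 CPM with FGF23. The groups separated in both lines, upward in WT and downward in Kl. Only RPL27A kept the interaction call in all 23 alternatives. The count was 2 to 8 with 1 library left out, where 77 to 298 of 18100 to 18193 genes were called lower. In the fit to the 12 libraries at 24 h the count was 33, where 1162 of 17173 genes were called lower. With the length trend removed it was 3, or 3.66%, where 186 of 17790 genes were called lower.

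No paralog passed the test over all libraries with 24 h of FGF23, nor did RPS6, RPL5 or RPL11. In the fit to the 6 Kl libraries alone the paralog RPS27L (-0.21, adjusted edgeR p 0.00588) and RPL11 (-0.19, 0.00163) were lower, and the authors' deposited table also marks both. RPS6, the substrate of the S6 kinases, had a log2 fold change of -0.04 in Kl and 0.09 in WT. RPL5 and RPL11, which bind MDM2 when free of ribosomes, had 0.0 and -0.19 in Kl. RPL22L1 had -0.22 in Kl and 0.22 in WT at 4.96 to 8.63 CPM, and neither passed the test. RPL7L1 had 0.11 in Kl, with 476, 482 and 474 CPM in controls and 503, 516 and 524 CPM with FGF23.

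After 1 h at 0.5 nM, WT cells showed no called member and no called gene, 0.0% of those tested. The median log2 fold change was 0.04, 57 of 82 members were above 0, and 1 member had an unadjusted p under 0.05. The other tools also called no member. In Kl cells 4 of 82 members were called higher, 4.88%, against 3.9% of all genes. Among them were RPL13 (0.35 ± 0.074, adjusted edgeR p 0.00399) and RPS15A (0.34 ± 0.0832, 0.0128). The called share of members was near that of all genes, and the members' median was 0.02.

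RPL13, of the large subunit, had 1739, 1617 and 1843 CPM in the 1 h Kl controls and 2552, 1897 and 2161 CPM with FGF23. RPS15A, of the small subunit, had 138, 123 and 149 CPM in controls and 189, 176 and 155 CPM with FGF23. Every FGF23 library was above every control in both, and library 1 was the highest. RPL35 shows how far that library could stand out, with 1192 CPM against 601 and 692 in its group. RPL26 was low there, with 30.1 CPM against 63.1 and 65.1. Without library 1 the calls were 3 higher and 2 lower, where 626 of all genes were higher and 164 lower. Without library 2 they were 11 higher and 1 lower, where 1783 of all genes were higher and 853 lower. Without library 3 they were 11 higher and 7 lower, where 996 of all genes were higher and 223 lower. Without control library 2 they were 1 lower and none higher, where 340 of all genes were higher and 63 lower. These fits tested 18143 to 18188 genes. The fit to the 6 libraries alone called none and limma voom 1 member, against 20 with an unadjusted edgeR p under 0.05. Over all genes these were 90 of 16250, 229 of 17790 and 3434 of 17790. Scaling by library size alone turned the split into 3 higher and 4 lower and the median to -0.03. Of all 17790 genes 476 were higher and 367 lower under that scaling.

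The difference between lines at 1 h called 1 of 82 members, RPS15A, higher in Kl by 0.53 ± 0.118 (adjusted edgeR p 0.0194), against 0.708% of all genes called higher. RPS15A had 168, 122 and 148 CPM in the 1 h WT controls and 128, 125 and 131 CPM with FGF23, inside the range of the controls. Its call was lost in 7 of 23 alternatives, among them the fit to the 12 libraries at 1 h and limma voom. Without WT control library 1, without WT FGF23 library 2, without Kl control library 2 or without Kl FGF23 library 1 no member was called. Without Kl FGF23 library 2 there were 3. Over all genes 530 were called without that library, and 89 to 236 in the fits that called no member.

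**Figure D3:**
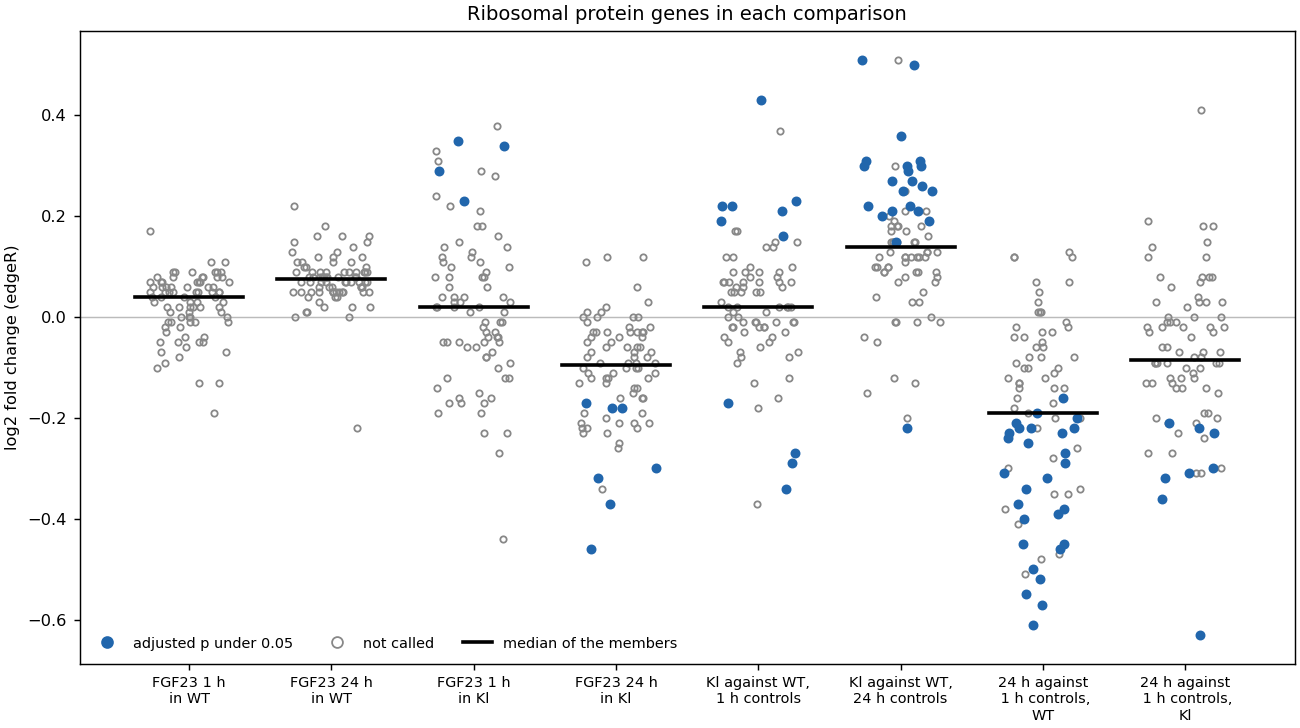
Log2 fold change of each of the 82 tested members (points) in 8 comparisons, with filled points for an adjusted p under 0.05 in edgeR and bars for the members' median. Medians run from -0.19 for 24 h against 1 h controls in WT to 0.14 for Kl against WT 24 h controls.

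Untreated Kl cells had more of several ribosomal protein transcripts than untreated WT cells, with RPS12 and RPLP0 among those higher at both times and RPS6 lower at both. At 1 h 7 members were higher in Kl (8.54%) and 4 lower (4.88%), where 7.43% of all genes were higher and 8.55% lower. The share of members higher at 1 h was near that of all genes, and the median of the members was 0.02. At 24 h 21 were higher (25.6%) and 1 lower (1.22%), against 11.5% and 12% of all genes, and 70 of 82 members were above 0 with a median of 0.14. Scaling by library size alone gave 13 higher and 3 lower, where 1313 of 17790 genes were higher and 2716 lower. Without Kl control library 3 the 24 h count fell to 12, and without any other library it was 15 to 19. Over all genes 3219 were called without Kl control library 3 and 3124 to 3272 without any other. At 1 h the split moved with single libraries. It was 2 higher and 4 lower without Kl control library 3, with a median of -0.03, and 5 higher and 1 lower without Kl control library 2, with a median of 0.06. Without WT control library 2 or 3 it was 3 higher and 3 lower. Without WT control library 1 it was 6 higher and 1 lower, and without Kl control library 1 it was 5 higher and 2 lower. Of 18143 to 18181 genes tested these 1 h fits called 907 to 1041 higher and 1109 to 1305 lower. The 24 h Kl controls here are the same libraries against which FGF23 at 24 h was compared. RPL30, RPS2, RPL27A, RPL21 and RPS18 are in the higher calls here and the lower calls there, and the errors of the shared controls enter both values with opposite sign. Whether the line difference itself changed between times was not tested.

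From separate control libraries 6 members were higher in Kl at both times, among them RPL19, RPLP0, RPS12, RPS26 and RPSA, which is 85.7% of the 1 h calls and 28.6% of the 24 h calls. The same overlap over all genes was not counted, so these shares do not set the members apart. RPS12, in the beak of the small subunit, had 473, 467 and 444 CPM in WT and 537, 543 and 530 CPM in Kl at 1 h. At 24 h it had 429, 399 and 410 CPM in WT and 521, 516 and 549 CPM in Kl. The lines did not overlap at either time, with log2 fold changes of 0.22 ± 0.0499 and 0.36 ± 0.0501 and adjusted edgeR p-values of 0.0024 and 4.82e-06.

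RPLP0, the base of the stalk, had 1543, 1509 and 1516 CPM in WT and 1618, 1801 and 1956 CPM in Kl at 1 h. At 24 h it had 1485, 1500 and 1487 CPM in WT and 1735, 1712 and 1719 CPM in Kl. Its log2 fold changes were 0.23 ± 0.0559 and 0.21 ± 0.0559. Of the other stalk proteins RPLP1 was higher at 24 h by 0.31 (adjusted edgeR p 0.000638), and RPLP2 had 0.18 and did not pass.

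RPS6 was the only member lower in Kl at both times. It had 1253, 1170 and 1250 CPM in WT and 1038, 969 and 1048 CPM in Kl at 1 h. At 24 h it had 1166, 1148 and 1197 CPM in WT and 991, 1016 and 1011 CPM in Kl. The log2 fold changes were -0.27 ± 0.0498 and -0.22 ± 0.0498, and all 17 alternatives kept the call at each time. RPS6 lies on chromosome 9, where the median over all tested genes was -0.32 at 1 h and -0.33 at 24 h.

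The other members of chromosome 9 were also below 0 in Kl at both times. RPL7A, of the large subunit, had -0.17 at 1 h (adjusted edgeR p 0.0193) and -0.13 at 24 h, RPL35 had -0.37 and -0.15, and RPL12 had -0.13 and -0.01, of which only the 1 h value of RPL7A passed. RPS21, the member on chromosome 20, had 255, 226 and 222 CPM in WT and 183, 162 and 211 CPM in Kl at 1 h, a log2 fold change of -0.34 (adjusted edgeR p 0.00992). All genes of chromosome 20 had medians of -0.37 at 1 h and -0.34 at 24 h. RPL17, on chromosome 18, had 0.37 at 1 h and 0.5 at 24 h, with an adjusted edgeR p of 0.00745 at 24 h, where that chromosome's genes had medians of 0.15 and 0.14. The 5 members on chromosome 6 had medians of 0.07 and 0.27, against 0.15 and 0.12 for its genes. Among them RPL7L1 had 398, 397 and 390 CPM in WT and 476, 482 and 474 CPM in Kl at 24 h. The part of a chromosome's overall shift in each member's difference was not tested.

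**Figure D4:**
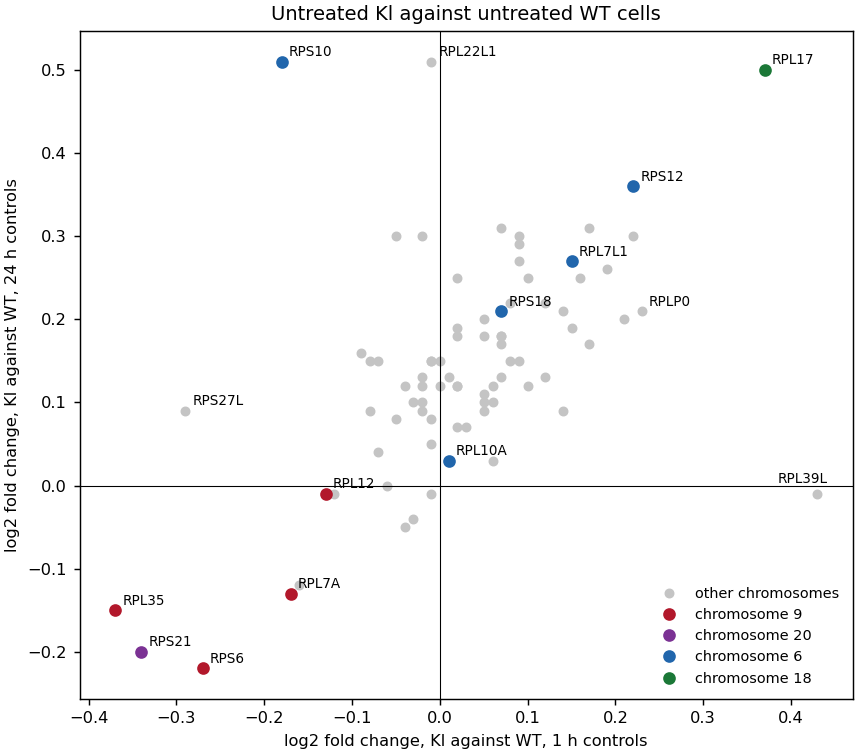
Log2 fold change of untreated Kl over untreated WT cells at 1 h (x axis) and 24 h (y axis) for the 82 tested members, with members of chromosomes 6, 9, 18 and 20 coloured and named. RPS6, RPL7A, RPL35 and RPL12 of chromosome 9 and RPS21 of chromosome 20 lie left of 0 and below 0, and RPL17 of chromosome 18 is at 0.37 and 0.5.

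The paralogs did not move alike between lines. RPL39L had 9.16, 8.41 and 7.13 CPM in WT and 12.3, 8.99 and 12.2 CPM in Kl at 1 h, which overlap, and was called higher by 0.43 (adjusted edgeR p 0.036). At 24 h its value was -0.01. RPS27L, a p53-induced form of RPS27, was lower at 1 h by 0.29 (adjusted edgeR p 0.0426), with 114, 93.5 and 115 CPM in WT and 81.7, 84.8 and 95.8 CPM in Kl, and had 0.09 at 24 h. RPL22L1 was higher at 24 h by 0.51 (adjusted edgeR p 0.0302), from 5.58, 5.33 and 5.1 CPM to 7.08, 8.63 and 7.18 CPM, while RPL22 had 0.03. RPL26L1 was higher at 24 h by 0.25. Of the 20 p53 targets and MDM2 axis genes, a list without RPS27L, 8 were lower and 1 higher in Kl at 1 h, where 8.55% of all genes were lower. At 24 h 11 were lower and none higher, against 12% of all genes lower, among them CDKN1A (-0.34 and -0.55) and MDM2 (-0.36 and -0.51).

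WT control cells at 24 h had less ribosomal protein messenger than those at 1 h, and in Kl the lower calls went from 8 to 1 without 1 library. In WT 28 of 82 members were lower and none higher, 34.1% against 6.45% of all genes called lower, with a median of -0.19. In Kl 8 were lower and none higher, 9.76% against 6.07%, with a median of -0.08. Of these, 7 were lower in both lines, RPL7, RPL9, RPL23, RPL31, RPS15A, RPS25 and RPSA, which is 25.0% of the WT calls and 87.5% of the Kl calls. The overlap between the lines over all genes was not counted, so these shares do not set the members apart. Times were in separate tables, and time, culture and library batch cannot be told apart. In WT the count was 17 without 24 h control library 3, 18 without 24 h control library 2 or 1 h control library 1, and 22 to 24 without another. Of 18100 to 18167 genes tested 571 to 868 were called lower in these fits. In Kl the count was 1 lower and 1 higher (1.22% each) without 1 h control library 3, with a median of -0.03. Of 18172 genes 744 were lower and 978 higher in that fit. The lower calls in Kl were 4 without 24 h control library 1 or 3, 5 without 24 h control library 2, and 10 or 11 without another. Over all genes 517, 699 and 617 were lower without 24 h control library 1, 2 and 3. Without 1 h control library 1 or 2 these were 804 and 573.

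RPL9, of the large subunit, had 762, 612 and 702 CPM in the 1 h WT controls and 520, 494 and 506 CPM at 24 h. In Kl it had 639, 679 and 792 CPM at 1 h and 536, 568 and 543 CPM at 24 h. The times did not overlap in either line, with log2 fold changes of -0.45 ± 0.101 and -0.36 ± 0.101. RPS15A had 103, 96.7 and 96.4 CPM in the 24 h WT controls against the 122 to 168 CPM given above for 1 h, a log2 fold change of -0.57 ± 0.0836. RPL31 had 834, 753 and 847 CPM at 1 h and 597, 594 and 592 CPM at 24 h in WT, and 750, 749 and 941 CPM against 655, 654 and 675 CPM in Kl.

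Among the paralogs RPL22L1 fell by 0.61 (adjusted edgeR p 0.0154) and RPS27L by 0.52 (0.000806) in WT, and RPL39L fell by 0.63 in Kl (0.00551), from 12.3, 8.99 and 12.2 CPM to 7.13, 7.88 and 6.64 CPM. RPL39, the partner of RPL39L, fell by 0.55 in WT, from 524, 484 and 582 CPM to 381, 357 and 351 CPM.

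Members with less G and C in their exons had the lower values in this comparison. Across the 82 members Spearman's rho between GC content and log2 fold change was 0.57 in WT and 0.57 in Kl, and across 17782 genes it was 0.24 and 0.29, as a description over genes that share the same libraries. In WT 21 of the 41 members of lower GC (40.3 to 49.4%) were called lower, with a median of -0.25, and 7 of the 41 of higher GC (49.8 to 63.5%), with a median of -0.1. With the GC trend of each library removed, an alternative added after the values were seen, 38 members were lower in WT and 9 in Kl. Lower calls over all 17790 genes rose too, from 1148 to 1704 in WT and from 1080 to 1349 in Kl. For FGF23 at 24 h in Kl rho was -0.01 over the members, and 9 were lower with the trend removed. The lower calls over all 17790 genes rose there from 651 to 970. For FGF23 at 1 h in Kl rho was 0.46, and the trend removed left 6 higher and 2 lower. Of all 17790 genes 692 were higher and 203 lower there.

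**Figure D5:**
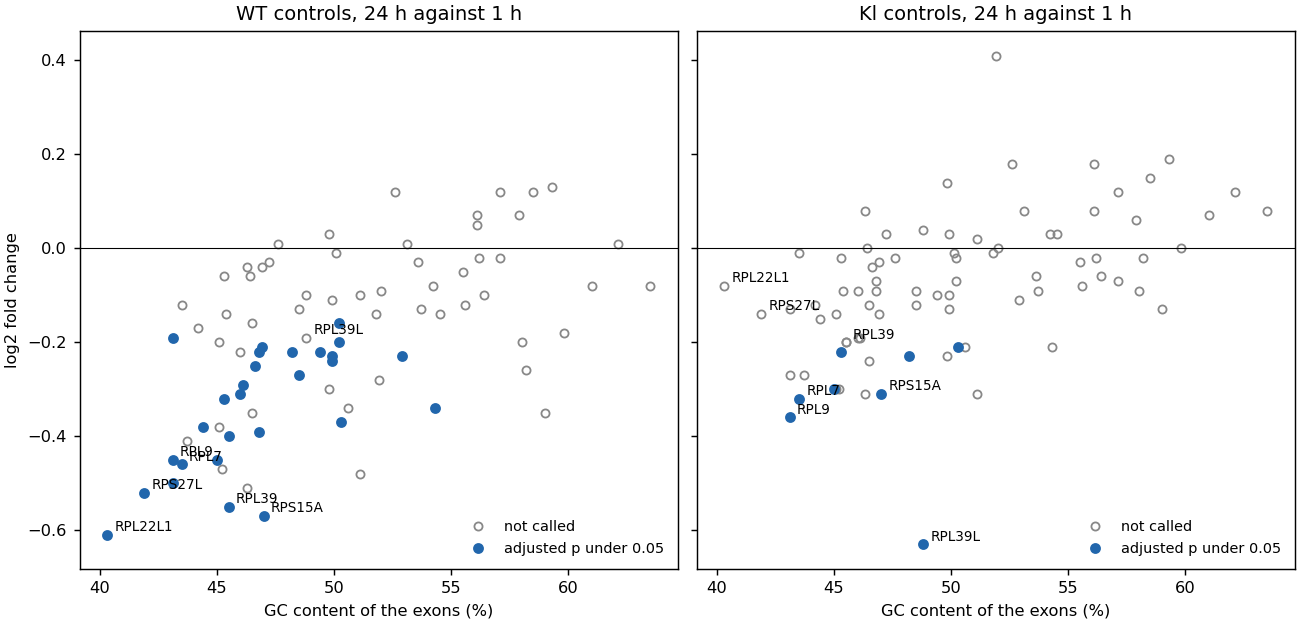
Log2 fold change of 24 h over 1 h controls against exonic GC content (%) for the 82 tested members in WT (left) and Kl (right), with filled points for an adjusted p under 0.05 in edgeR. Values rise with GC content in both lines (rho 0.57 in each), and 28 members in WT and 8 in Kl are called lower.

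As a share of all counts the members took 5.89 to 5.98% in the 1 h WT controls and 5.48 to 5.61% at 24 h, without overlap. In Kl the controls had 5.78 to 6.33% at 1 h and 5.6 to 5.88% at 24 h, and 24 h of FGF23 gave 5.52, 5.18 and 5.19%, below each of the 3 controls. WT cells with FGF23 at 24 h had 5.86, 5.55 and 5.94%, overlapping their controls. The share of mitochondrially encoded counts, 6.09 to 7.22% in WT controls at 1 h and 5.35 to 5.53% at 24 h, moved the same way with time. Its part in the members' difference was not tested.

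Genes that work beside the ribosomal proteins did not all follow them. Of the 4 ribosomal proteins outside the naming rule, among them FAU and RACK1, RPL36AL was lower in Kl with FGF23 at 24 h by 0.25 (adjusted edgeR p 0.0251), and all 4 were below 0 there. The 77 tested mitochondrial ribosomal proteins had 9 lower (11.7%, against 3.66% of all genes) and 1 higher in that comparison, with a median of -0.08. MRPL51 was among the lower ones at -0.46 and MRPL54 at -0.45. In untreated Kl against WT at 24 h 30 of them were higher (39.0%, against 11.5% of all genes) and 1 lower, with a median of 0.21. In WT at 24 h against 1 h 32 were lower (41.6%, against 6.45%) and none higher, with a median of -0.18.

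The 63 ribosome biogenesis factors had a median of -0.04 with FGF23 at 24 h in Kl, where NOP56, a core protein of box C/D particles, was lower by 0.23 (adjusted edgeR p 0.00257) and SDAD1 was higher by 0.31. At 1 h in Kl 4 were higher, RRS1 (0.56), NOC4L (0.38), NIP7 (0.29) and GRWD1 (0.25), and none lower. That is 6.35% of the list, near the 3.9% of all genes called higher. In untreated Kl against WT at 24 h 31 were higher (49.2%, against 11.5% of all genes) and 2 lower, with a median of 0.23. Among the higher were the nucleolar proteins NPM1 (0.44) and NCL (0.33). Between 24 h and 1 h Kl controls 19 were higher (30.2%, against 6.82% of all genes) and none lower.

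The list of translation factors and other genes known for TOP messengers held 17 genes. With FGF23 at 24 h in Kl 3 were higher (17.6%, against 4.91% of all genes) and none lower, with a median of 0.01. The higher ones were EIF2S3 (0.48, adjusted edgeR p 1.28e-06), TPT1 (0.24) and PABPC1 (0.22). Of the 22 genes of mTORC1 and TOP messenger control 3 were higher (13.6%) and none lower there, among them EIF4EBP1, a translation repressor held off by mTORC1, at 1.02 (adjusted edgeR p 2.1e-09), and SESN2, a stress-induced mTORC1 inhibitor, at 0.94 (3.62e-09). Neither moved in WT by the test, and the interaction was 0.97 for EIF4EBP1 (8.86e-06) and 0.99 for SESN2 (2.61e-06). The p53 list had DDB2 lower by 0.3 in this comparison and no other call. MYC, an activator of ribosomal protein genes, was higher with FGF23 at 1 h in Kl by 0.65 (0.000748) and in untreated Kl against WT by 1.1 at 1 h and 1.06 at 24 h.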

How the data were processed

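Deposited were 4 tables of 6 libraries, one per FGF23 comparison. Per the file headers they hold raw counts per gene, FPKM values, a signal column (counts over the authors' size factors, not used), the authors' log2 fold changes and the authors' adjusted p-values. The aligner, counter and stranding are not given in the sources used here. Gene coordinates of all 83 members matched GENCODE 29 (GRCh38), although the submitters' processing notes name the build mm10.

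From the deposited counts the 24 libraries were joined, with a gene absent from a table taken as 0 (at most 30 counts elsewhere). The filter filterByExpr left 17790 genes. They were fitted with 8 group means by the robust quasi-likelihood method of edgeR 4.0.16 after TMM scaling, leaving 16 residual degrees of freedom. P-values were adjusted by Benjamini-Hochberg within each of 10 contrasts. CPM are counts over TMM-scaled library totals. Medians over the members and counts above 0 carry no test.

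The members, the gene lists and the alternatives were chosen with earlier results of these data known. Named genes are, in each contrast, called members with the 10 highest and 10 lowest folds, 22 fixed members (paralogs, their partners, the stalk and a few of known regulatory role), members on chromosomes 6, 9, 18 and 20 between lines, and up to 4 called genes with the smallest p of each of 7 lists. Members named outside it, such as those called only in a fit to the libraries compared, were chosen after their values were seen. One gene of the translation factor list, EEF1G, is not analysed here. Some selected genes enter the counts without being reported individually.

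Alternatives were RLE factors, library size alone, TMM factors without the members, DESeq2 1.42.0, no filter or one at CPM 1 in 3 libraries, limma 3.58.1 voom with a spread per group, only the libraries compared, the replicate number as a block, length trend removed (lowess, span 0.3) and each library left out. Removal of the GC trend (17782 genes) was added after seeing the data. The fitting steps were tested on simulated data. Tables and plots were made in Python 3.11.15 (matplotlib 3.10.9, numpy 2.4.6, pandas 2.3.3) and fits in R 4.3.3.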

Additional observations from a re-analysis of the deposited data

Results flagged for a closer look

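For 7 of the members described here the response to FGF23 differed between Kl and WT cells by the interaction test in edgeR. At 1 h RPS15A was 0.53 higher in Kl on the log2 scale. At 24 h the Kl minus WT difference was -0.53 for RPL30, -0.49 for RPS2, -0.43 for RPL27A, -0.36 for RPL23A, -0.34 for RPL21 and -0.26 for RPS18. RPL27A kept its call in all 23 alternatives, RPS2 in 22, RPL21 in 19, RPS15A in 16, RPL30 in 13, RPL23A in 11 and RPS18 in 9.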

How the results depend on the processing

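Of 262 values of named members 68 were called. Of 1204 alternatives of these, 980 kept the call and 224 lost it, and none of the 4766 alternatives in all reversed a call. Counts of called members moved by over 1.5 times as follows. In the fit to only the libraries compared they were 6 for FGF23 at 24 h in WT (0 over all libraries), 0 at 1 h in Kl (4), 27 at 24 h in Kl (7), 18 and 61 for Kl against WT at 1 h and 24 h (11 and 22), 53 and 22 for time in WT and Kl (28 and 8), and 0 and 33 for the interactions at 1 h and 24 h (1 and 7). With limma voom they were 1 and 25 for FGF23 in Kl, 42 for the 24 h line difference, 46 and 17 for time in WT and Kl, and 0 and 26 for the interactions. For FGF23 at 1 h in Kl they were 7 with library size alone, 15 without a filter, and 8 with DESeq2 and with the GC trend removed. Without a filter they were 22 for time in Kl and 3 for the 1 h interaction, which was 0 with library size alone. The length trend removed gave 3 for FGF23 at 24 h in Kl and 3 for its interaction. With 1 library left out the counts ran from 1 to 18 for FGF23 at 1 h in Kl, 3 to 10 at 24 h in Kl, 6 to 7 and 12 to 19 for the line difference at 1 h and 24 h, 17 to 24 and 2 to 11 for time in WT and Kl, and 0 to 3 and 2 to 8 for the interactions. Calls over all genes moved too. In the fit to only the libraries compared they went from 1524 to 3128 for FGF23 at 24 h in Kl. At 1 h in Kl they went from 859 to 90. The cause was not tested.

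Equal replicate numbers are not shown to mark shared cultures. Deviations of same-numbered libraries correlated by -0.04 to 0.116 over 18 pairs, with 2 over 0.1, so pairing was not used. At 1 h each treated library correlated best with the control of its own number, a hint from the data only, and at 24 h this did not hold. With the replicate block 7 members (3 higher, 4 lower) were called for FGF23 at 1 h in Kl and 12 lower at 24 h in Kl, and no other count moved by over 1.5 times. Over all 17790 genes that fit called 717 higher and 221 lower at 1 h in Kl and 737 lower at 24 h in Kl. Depth limited a few members most: RPL3L, RPS10, RPL36A, RPL22L1 and RPL39L had medians of 4, 48, 119, 134 and 154 counts per library.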
